A study of Mus musculus with 21 samples.

Results

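Dark zone germinal centre B cells were the cells that the authors' deposited cell table names DZ among the cells captured in the well of non-plasma cells (non-PC). They numbered 2347 of 6183 non-PC cells and of 6619 cells in all. The cells came from lymph nodes of 6 mice immunised under the skin at the tail base with 100 µg of NP-KLH, a hapten on a carrier protein, in Sigma adjuvant, and given 5 mg of tamoxifen by gavage at least 6 days later. Of the mice, 2 each were taken 10, 16 and 22 days after immunisation. The tamoxifen served to label cells through Cre-ERT2, and cells with the fluorescent protein eYFP were kept, so cells not labelled are outside the data. The strain, sex and age of the mice and the promoter that drives the Cre are not given in the sources used here. Live, IgD-negative, eYFP+ cells were tagged mouse by mouse with barcoded anti-CD45 antibodies, sorted, pooled over mice within a fraction and sequenced with droplet 5′ chemistry. The states compared with DZ were LZ (light zone, 3116 cells), LZtoDZ (as the name reads, light zone to dark zone, 189 cells) and preMem (as the name reads, memory precursor, 486 cells). The 37 prePC and 8 PC cells of the same fraction were too few to compare.

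Each mouse gave 214, 414, 282, 348, 621 and 468 DZ cells, in the order day 10 mice 1 and 2, day 16 mice 1 and 2, day 22 mice 1 and 2, which is the order used for every list of mouse values below. DZ cells made up 38.7, 28.5, 38.6, 36.6, 46.7 and 40.2% of the non-PC cells, 38.2% ± 5.91 (SD, n = 6 mice). The lowest share was in day 10 mouse 2 and the highest in day 22 mouse 1. Unique transcript counts (UMIs) of the DZ cells summed to between 2617037 and 6442927 per mouse. Comparisons below are over mice, on raw counts summed per mouse, state and deposited cell cycle phase, except that ratios of low counts pool UMIs over mice. A gene is called where edgeR's quasi-likelihood test with mouse as a block gave an adjusted p under 0.05, and levels are in CPM, the gene's share of a sum's UMIs on the usual fixed scale.

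In a germinal centre, B cells cycle between a dark zone, where they divide and mutate their antibody genes, and a light zone, where they meet antigen and T cells. Movement into the dark zone depends on the receptor CXCR4, while the light zone is marked by surface activation molecules and by transcripts of the NF-kB and CD40 pathways. Dark zone cells are often dividing, so transcripts of mitosis and transcripts of position are mixed in most lists of dark zone genes. The comparisons here therefore held the phase fixed.

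The name DZ came from the same cells' expression. The cell table also carries a zone score for each cell, and DZ and LZ were nearly a split of that score at 0.5. DZ cells ran from 0.497 to 1.0 (median 0.591) and LZ cells from 0.041 to 0.515 (median 0.409). Only 3 of the 2347 DZ cells lay at or below 0.5, and 62 of the 3116 LZ cells lay above it. The 2 states met without a gap: 28.2% of DZ cells and 28.5% of LZ cells had a score between 0.45 and 0.55. As against LZ, DZ was thus nearly a range of that score. Some LZtoDZ cells lay in the same range, such as 6 with a score from 0.55 to 0.6. Whether DZ is a separate type was not tested. A gene that differs between DZ and LZ is described here, and a call says that the difference repeated over mice. It is no independent evidence for the name.

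**Figure D1:**
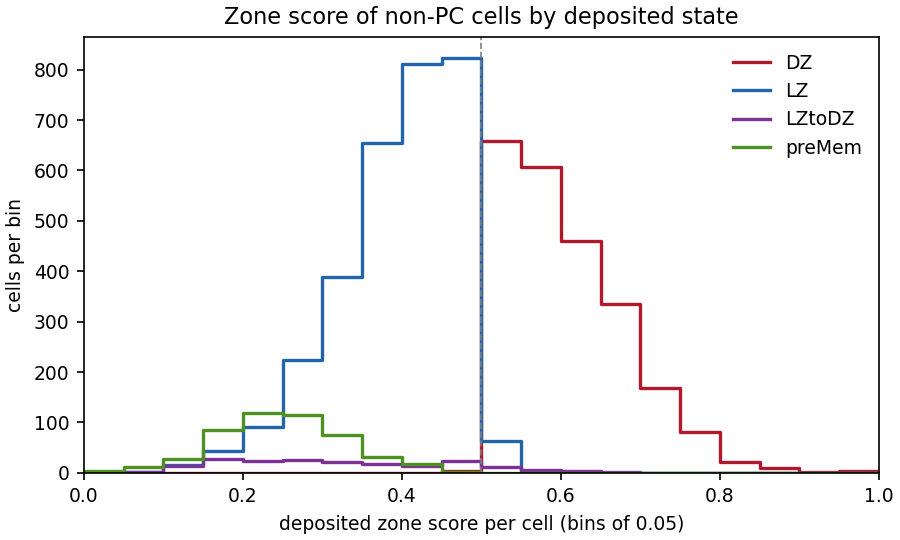
Cells per bin of 0.05 (vertical axis) against the deposited zone score per cell (horizontal axis) for the DZ, LZ, LZtoDZ and preMem cells of the non-PC fraction, with a dashed line at 0.5. DZ and LZ cells meet at the line with no gap between them, and LZtoDZ and preMem cells lie mostly on the LZ side.

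Levels also changed step by step along the score inside each state. Over 3 rising score bands of LZ cells (below 0.35, 0.35 to 0.45, and above) and 3 of DZ cells (below 0.55, 0.55 to 0.65, and above), mean Rgcc over mice was 23.3, 48.0, 85.2, 122, 188 and 255 CPM. Cd83, an activation glycoprotein of light zone cells, fell over the same bands, from 855 to 481, 263, 184, 97.8 and 72.1 CPM. The share of cells in G2/M rose as well, from 9.2% to 11.2, 20.6, 27.1, 37.1 and 45%. The DZ cells nearest the boundary and the LZ cells nearest it differed less than the ends of either state did: Rgcc stood at 122 CPM just above the boundary and 85.2 CPM just below it. These bands were made from the score, so the steps are given as a description with no test.

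The 4 markers by which the cells were to be checked are Cxcr4, the receptor for CXCL12 that holds cells in the dark zone; Rgcc, a regulator of the cell cycle first described as a response gene to complement; Cenpf, a kinetochore protein made in G2 and mitosis; and Emp2, a tetraspan membrane protein. Their promoters are shown because 3 of the 4 markers were called between the zones in every phase while Cenpf was called in 1. The same contrast was looked for in their sequence. The G2/M call of Cxcr4 lay near the threshold (edgeR adjusted p of 0.0425) and was lost under several alternatives given below. Cenpf is itself a member of the G2 and M phase list used below. Each runs from 250 bases before the start to 50 after it, 5′ to 3′ on the gene's strand, from RefSeq on GRCm38.p6, at chr1:128592250-128592549 (minus strand) for Cxcr4, chr14:79301586-79301885 (minus) for Rgcc, chr1:189688037-189688336 (minus) for Cenpf and chr16:10313919-10314218 (minus) for Emp2. Capitals mark matches, on either strand, to any of CCAAT (the NF-Y box), TTTGAA (a form of the cell cycle homology region), CAGGTG (an E-box) and TGTTTAC (a FOXO site).
Cxcr4: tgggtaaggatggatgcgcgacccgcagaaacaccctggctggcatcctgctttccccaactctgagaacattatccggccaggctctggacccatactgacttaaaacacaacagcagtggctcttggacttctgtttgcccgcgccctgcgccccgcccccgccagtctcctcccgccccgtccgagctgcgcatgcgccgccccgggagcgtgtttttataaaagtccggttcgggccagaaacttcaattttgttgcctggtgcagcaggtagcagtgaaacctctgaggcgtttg
Rgcc: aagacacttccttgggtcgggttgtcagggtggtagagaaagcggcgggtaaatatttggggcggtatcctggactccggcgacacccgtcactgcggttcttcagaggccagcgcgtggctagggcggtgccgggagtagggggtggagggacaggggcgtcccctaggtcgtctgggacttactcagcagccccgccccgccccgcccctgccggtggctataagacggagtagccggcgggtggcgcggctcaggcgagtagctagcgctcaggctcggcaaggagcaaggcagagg
Cenpf: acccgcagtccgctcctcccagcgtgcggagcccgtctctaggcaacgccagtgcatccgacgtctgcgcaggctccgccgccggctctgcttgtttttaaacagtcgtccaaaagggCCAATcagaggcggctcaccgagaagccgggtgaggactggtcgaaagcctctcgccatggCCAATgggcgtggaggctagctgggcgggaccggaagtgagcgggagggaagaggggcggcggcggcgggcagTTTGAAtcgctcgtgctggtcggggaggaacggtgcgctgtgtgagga
Emp2: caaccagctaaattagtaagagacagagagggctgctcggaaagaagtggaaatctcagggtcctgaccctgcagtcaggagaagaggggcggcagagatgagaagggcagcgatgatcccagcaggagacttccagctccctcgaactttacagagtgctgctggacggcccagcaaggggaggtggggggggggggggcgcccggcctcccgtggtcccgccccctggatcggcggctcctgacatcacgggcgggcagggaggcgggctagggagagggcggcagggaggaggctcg
Cenpf held 2 CCAAT matches and 1 TTTGAA match, and the other 3 promoters held none of the 4 motifs. Of all 32851 promoters in the table, 37.4% held CCAAT, 17.9% TTTGAA, 20.2% CAGGTG and 3.6% TGTTTAC. Of the 51 promoters of the list of G2 and M phase genes used below, 74.5% held CCAAT and 66.7% held TTTGAA. The 201 promoters of genes higher in DZ in all 3 phases (36.3% and 15.4%) stood near the 6630 promoters of all genes tested in all phases (38.9% and 12.4%), and near the 234 promoters of genes lower in all phases (41.9% and 12.8%). CAGGTG stood at 17.4% of the promoters of genes higher in all phases, 18.4% of those lower and 16.3% of all tested. A match is a run of letters and says nothing of binding.

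Rgcc was higher in DZ than in LZ in every mouse and every phase, by about the same amount in G1 and in G2/M. In G1, DZ cells held 215, 173, 173, 147, 241 and 229 CPM and LZ cells of the same mice 59.8, 34.0, 46.8, 38.1, 63.9 and 61.3 CPM. In G2/M the DZ values were 188, 187, 177, 191, 266 and 185 CPM and the LZ values 48.4, 51.2, 29.8, 27.7, 77.4 and 55.8 CPM. No LZ value reached the lowest DZ value in either phase. The log2 differences were 1.98 ± 0.08 (SE) in G1, 1.59 ± 0.09 in S and 1.99 ± 0.12 in G2/M, all called. The test of whether the difference changed with phase was not called (G2/M minus G1 -0.01), but it was called, at 0.13, when cells near the score boundary were left out.

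Emp2 was higher in DZ in all 18 pairs of mouse and phase, and the DZ level was higher at each later day. DZ cells in G1 held 12.6, 12.6, 32, 30.4, 63.8 and 48.0 CPM and LZ cells in G1 2.26, 3.66, 11.9, 2.63, 14.4 and 10.4 CPM. Within each mouse the states did not cross, but the highest LZ value, 14.4 CPM in day 22 mouse 1, lay above both DZ values of day 10. The log2 differences were 2.15 ± 0.19 in G1, 2.24 ± 0.20 in S and 2.14 ± 0.21 in G2/M, closer to each other than their errors and all called.

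Cxcr4 was higher in DZ in 17 of the 18 pairs. In G1, DZ cells held 37.9, 26.3, 27.3, 23.1, 31.9 and 35.3 CPM against 13.5, 9.53, 15.8, 11.0, 10.7 and 16.4 CPM in LZ cells, with no overlap. In G2/M, DZ cells held 47.7, 31.5, 39.0, 30.2, 31.2 and 30.4 CPM against 21.2, 34.6, 28.1, 16.6, 17.6 and 12.2 CPM in LZ cells, and day 10 mouse 2 ran the other way. The log2 differences were 1.25 ± 0.15 in G1 and 1.05 ± 0.14 in S, both called, and 0.59 ± 0.18 in G2/M with an edgeR adjusted p of 0.0425. The call in G2/M was lost with DESeq2 (0.67), without the mouse block (0.58), with cells thinned to equal depth (0.47) and without any 1 mouse other than day 10 mouse 2 (0.49 to 0.63). The test of whether the difference itself changed with phase was not called for Cxcr4.

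Cenpf behaved unlike the other 3 markers: it was called in G2/M alone. In G1, DZ cells held 45.8, 20.0, 51.0, 32.5, 38.0 and 42.0 CPM and LZ cells 29.3, 32.3, 29.0, 38.6, 32.2 and 49.2 CPM, and the groups overlapped. In G2/M, DZ cells held 507, 567.6, 540, 577, 520 and 597 CPM and LZ cells 322, 365, 361, 341, 320 and 357 CPM, without overlap. The log2 difference was 0.08 ± 0.15 in G1 and -0.12 ± 0.12 in S, neither called, and 0.64 ± 0.05 in G2/M, which was called. With phase ignored it was 1.39 ± 0.04. The difference between phases was itself called (edgeR interaction, adjusted p = 0.00297).

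**Figure D2:**
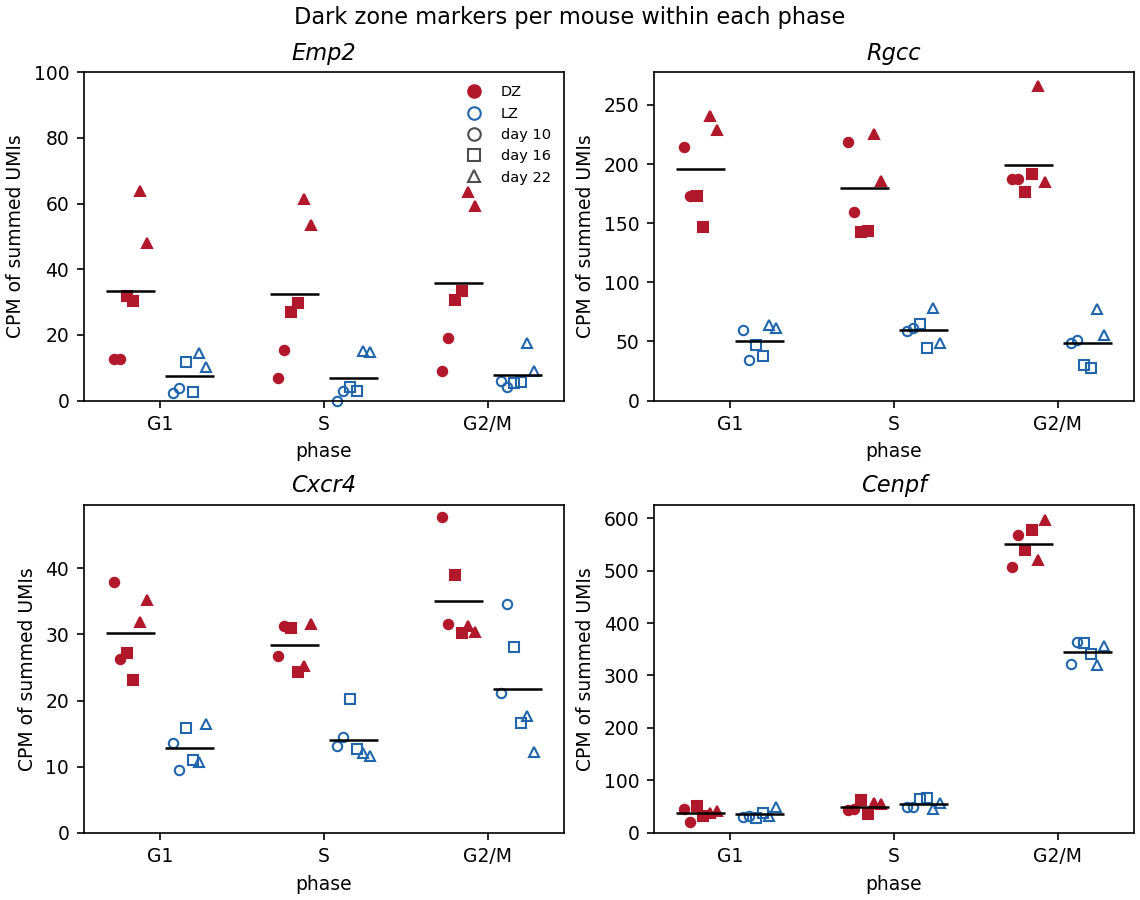
CPM of summed UMIs (vertical axes, from 0) of Emp2, Rgcc, Cxcr4 and Cenpf in DZ cells (filled) and LZ cells (open) of each mouse within G1, S and G2/M, with a bar at the mean of 6 mice and the day given by the symbol. Rgcc separates the states in each phase, Emp2 does so within each day, Cxcr4 overlaps in G2/M, and Cenpf separates them in G2/M only.

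The phases were not mixed alike in the 2 zones. DZ cells in G2/M made up 37.4, 43.7, 34.8, 36.8, 33.2 and 34.2% of each mouse's DZ cells, while LZ cells in G2/M made up 18.5, 17.4, 11.1, 11.3, 10.8 and 12.4% of its LZ cells. The lowest DZ share lay well above the highest LZ share. Mean shares in DZ were 37.2% ± 4.64 in G1, 26.2% ± 1.85 in S and 36.7% ± 3.8 in G2/M (SD, n = 6 mice). In LZ they were 53.9% ± 5.43, 32.5% ± 2.43 and 13.6% ± 3.44. DZ thus held 23.1 percentage points more of its cells in G2/M, 16.8 points fewer in G1 and 6.34 points fewer in S. Each difference had the same direction in all 6 mice, and each gave a 2-sided exact permutation p of 0.03125 (0.03125 after Benjamini-Hochberg adjustment over the 3 shares), the smallest that 6 pairs allow. Phase called anew in cells thinned to 4758 UMIs gave differences of 25, -17.4 and -7.60 points in G2/M, G1 and S. LZtoDZ cells were mostly in S (64.1%), and preMem cells mostly in G1 (90.7%).

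**Figure D3:**
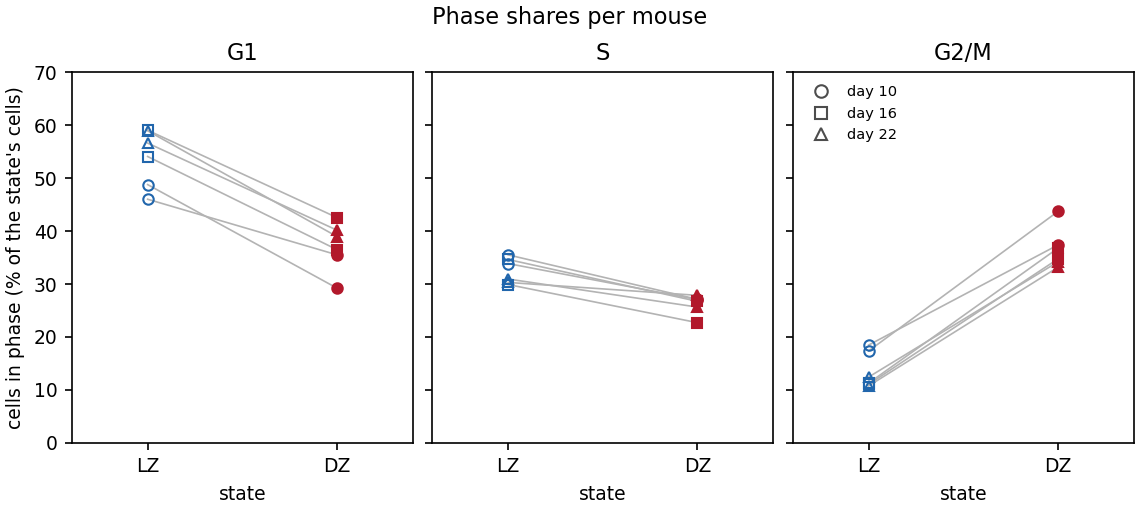
Share of each state's cells in G1, S and G2/M (vertical axis, percent, from 0) for LZ and DZ, with 1 line per mouse joining its 2 states and the day given by the symbol. All 6 lines fall in G1 and S and all 6 rise in G2/M.

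DZ cells also held more UMIs per cell at the same phase. The mean over mice of the median UMI count was 7115 in DZ and 6619 in LZ in G1 (ratio 1.07), and 11564 against 9993 in S (ratio 1.16). DZ was higher in 6 of 6 mice in each, with an exact permutation p of 0.03125 (0.0469 adjusted over 3 phases). In G2/M the medians were 12779 and 11640 (ratio 1.09), with DZ higher in 4 of 6 mice and an exact permutation p of 0.156. CPM removes the total, but a deeper cell is also read with less error. Calls in cells thinned to one depth are given in the closing section for the other phases, and in G1 they were 444 higher and 529 lower of 6182 genes tested. Thinning also left fewer genes to test, 5086 in place of 7461 in S and 4472 in place of 7068 in G2/M. It therefore does not measure the part of depth in the calls.

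Within a phase, fewer genes of mitosis were called between the zones than with phase ignored. With phase ignored, 3177 of 9333 genes tested were called between DZ and LZ (34.0%). Of the 52 genes on the G2 and M phase list, 51 were higher and none lower, with a median log2 difference of 0.72 beside 17.0% of all genes higher. Over all genes tested, 9.08% were higher and 10.2% lower within G1, 8.14% and 7.57% within S, and 7.33% and 7.16% within G2/M. Within G1 the same list gave 10 higher and 7 lower of 45 tested (median 0.03), and within S 9 higher and 1 lower of 49 (median 0.03). Within G2/M 25 of 52 were higher and 1 lower (median 0.22). The background of calls was 19.3% of 7375 genes in G1 (1422 genes), 15.7% of 7461 in S (1172) and 14.5% of 7068 in G2/M (1024), and the median over all genes tested lay between -0.005 and -0.002 in each.

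Cells of the zones called G2/M also differed in their phase scores, which were computed here from the S phase and the G2 and M phase lists. DZ cells called G2/M had a median G2/M score of 0.683 and S score of -0.082, and LZ cells called G2/M 0.566 and 0.064. When 211 cells of each state were matched on both of these scores, their medians were 0.653 and 0.655 for G2/M. The scores are built from cell cycle genes, so matching on them brings the values of such genes in DZ and LZ together by construction, and those values say nothing of the cause of the differences in all G2/M cells. Of the S phase list, 19 of 41 genes were lower in DZ within G2/M and none higher (median -0.29). Tyms, which makes thymidylate for replication, fell by 0.61 on the log2 scale there. Matching left 211 of 853 DZ cells in that phase, so fewer genes could be called in any group.

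A few cell cycle genes were higher in DZ in every phase. Ccnb2, the cyclin that starts mitosis with its kinase, held 103 ± 9.53 CPM in DZ and 45.9 ± 14.0 in LZ cells in G1 (SD, n = 6 mice), and the log2 differences were 1.22, 1.00 and 0.76 in G1, S and G2/M. Ube2c, the ubiquitin-conjugating enzyme of the anaphase-promoting complex, differed by 0.55, 0.43 and 0.54. Cenpa, the centromeric histone, differed by 0.66, 0.62 and 0.71. Hmgb2, a chromatin protein of dividing cells, differed by 0.45, 0.29 and 0.20. In matched G2/M cells Ccnb2 stood at 0.37 and was called, while Ube2c (0.07), Cenpa (0.20) and Hmgb2 (0.11) were not. Outside the mitotic set, Ccnd3, the cyclin that germinal centre B cells use for repeated division, differed by 0.46, 0.36 and 0.37. Cdc20, an activator of the same complex, differed in S (0.60) and G2/M (0.88) and not in G1 (-0.06). Top2a, which untangles chromosomes, was lower in DZ in G1 (-0.24) and G2/M (-0.19).

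**Figure D4:**
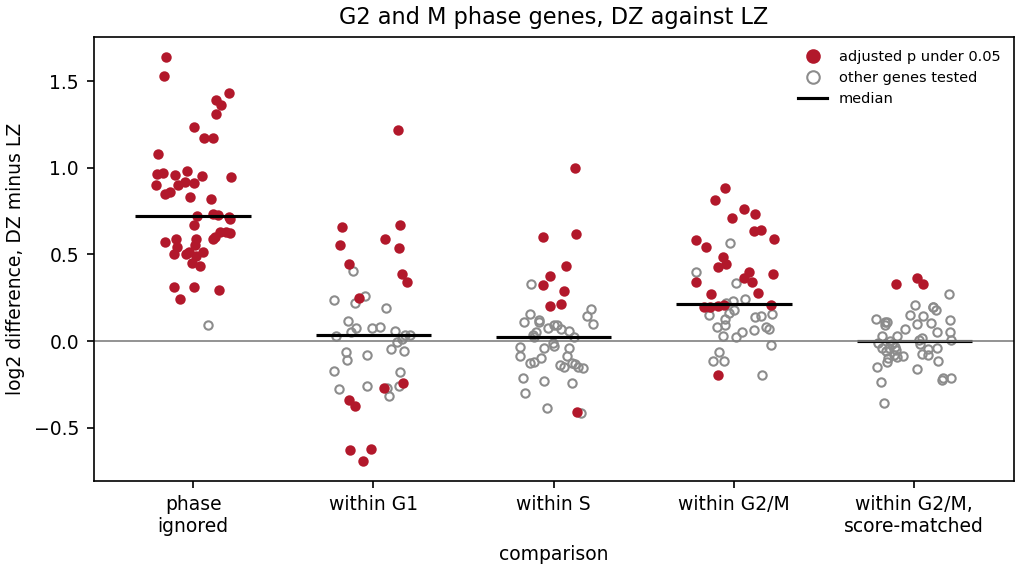
Log2 difference, DZ minus LZ (vertical axis), of each tested gene of the G2 and M phase list with phase ignored, within G1, within S, within G2/M, and within G2/M in cells matched on the phase scores computed here. Filled points have an adjusted p under 0.05 and bars are medians. The median is 0.72 with phase ignored, between 0.03 and 0.22 within phases, and -0.00 in matched cells, where matching on scores of cell cycle genes brings it near 0 by construction.

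In all, 6784 genes were tested in all 3 phases, and 206 (3.04%) were higher in DZ in every one and 224 (3.3%) lower in every one. Counts of list members in all phases, given below, are to be read beside these shares. Another 8 were called in all 3 with unlike directions. Of the 2628 genes called with phase ignored that could be tested in all phases, 957 were called in no phase, 1241 in 1 or 2 and 430 in all 3, whatever their direction. Of the 2050 genes called in at least 1 phase, 75.8% had the same sign in all 3. When cells were matched on both scores, 927 of 1329 calls in G1 and 778 of 1129 in S were made again, with the same direction in 99.9 and 100.0%. In G2/M 223 of 873 were made again, with the same direction in 93.7% and a median size 0.746 times that in all cells.

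**Figure D5:**
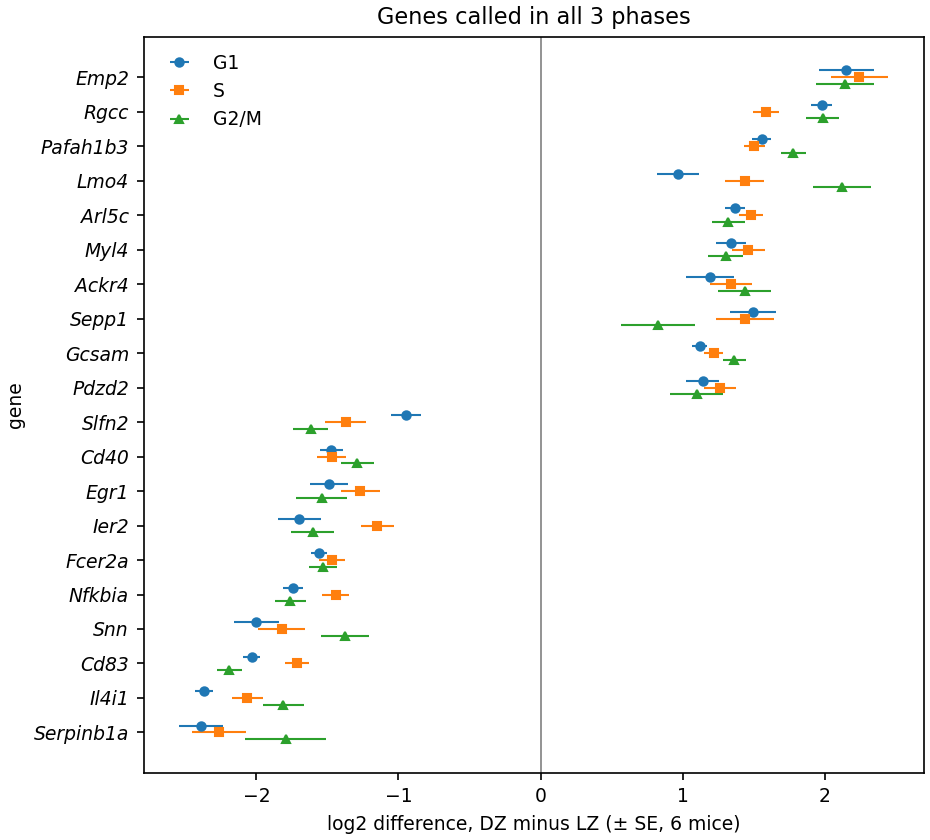
Log2 difference, DZ minus LZ (horizontal axis, ± SE, 6 mice), within G1, S and G2/M of the 10 genes with the largest mean increase and the 10 with the largest mean decrease among genes called in all 3 phases. All 20 keep their sign in all phases, Lmo4 grows from 0.97 in G1 to 2.12 in G2/M, and Sepp1 is smallest in G2/M at 0.83.

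After Emp2 and Rgcc, the largest mean increases among named genes were in Pafah1b3, Lmo4, Arl5c, Myl4, Ackr4, Sepp1, Gcsam and Pdzd2. Pafah1b3, a catalytic subunit of platelet-activating factor acetylhydrolase, held 399, 457, 510, 441, 617 and 543 CPM in DZ cells in G1 and 185, 165, 151, 153, 220 and 151 CPM in LZ cells. The groups lay far apart, and the log2 differences were 1.56 ± 0.07, 1.5 ± 0.07 and 1.78 ± 0.09 in G1, S and G2/M. Gcsam, an adaptor that limits germinal centre B cell motility, held 271, 300, 328, 334, 338 and 322 CPM in DZ cells in G1 against 151, 140, 138, 154, 153 and 145 CPM in LZ cells. It differed by 1.12 ± 0.05, 1.22 ± 0.07 and 1.36 ± 0.08. Every DZ value of both genes exceeded every LZ value.

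Lmo4, a LIM-domain cofactor of transcription, widened with phase. In G2/M, DZ cells held 61.7, 76.7, 53.1, 42.6, 52.4 and 55.1 CPM and LZ cells 4.54, 27.3, 8.81, 12.5, 8.20 and 10.1 CPM, the highest LZ value being that of day 10 mouse 2. Its log2 difference was 0.97 ± 0.15 in G1, 1.44 ± 0.14 in S and 2.12 ± 0.20 in G2/M, and the interaction was called (edgeR adjusted p = 0.0166). The G2/M minus G1 value of that test was 1.11, and the call was lost without the mouse block (1.08), with thinned cells (1.02), without cells near the score boundary (1.10), and without day 10 mouse 1 (0.96), day 22 mouse 1 (1.10) or day 22 mouse 2 (0.97). Arl5c, an ARF-like small GTPase, Myl4, a myosin light chain, and Ackr4, a scavenging chemokine receptor, differed by means of 1.39, 1.37 and 1.32 over the phases. Pdzd2, a PDZ-domain protein, differed by a mean of 1.17, and its call in G2/M was lost in matched cells (0.57). Sepp1, a selenium carrier, differed by 1.5, 1.44 and 0.83, and its call in G2/M was lost with DESeq2 (0.64), without the mouse block (0.80) and without any 1 mouse (0.32 to 0.94).

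A list of 12 dark zone genes outside the cell cycle had 8 members higher in all 3 phases and none lower, with a median log2 difference of 0.78 beside -0.00 over all genes tested in all phases. The list was chosen with earlier results of these cells known. By phase 11, 10 and 9 of the 12 were higher in G1, S and G2/M. Foxp1, a forkhead factor of B cell maturation, differed by 0.66, 0.94 and 0.69, the last not called without the mouse block (0.62) or in matched cells (0.68). Lipc, hepatic lipase, differed by 1.07, 1.12 and 0.92. Foxo1, the forkhead factor on which dark zone cells depend, was called in G1 (0.50) and S (0.44) and stood at 0.19 without a call in G2/M. Its call in S was lost without day 16 mouse 2 (0.39), day 22 mouse 1 (0.39) or day 22 mouse 2 (0.43), and with DESeq2 or thinned cells. Bach2, a repressor of plasma cell fate, was called in G1 (0.44) and G2/M (0.45) and stood at 0.23 in S. Rgs13, a brake on chemokine receptor signalling, was the lower member in G1 (-0.17).

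Several genes that handle damaged bases were higher in DZ while one that cuts at them was lower. Hmces, which shields abasic sites, differed by 0.97 ± 0.04, 0.93 ± 0.06 and 1.15 ± 0.05, and held 1086 ± 57.2 CPM in DZ and 476 ± 49.3 in LZ cells in G2/M. Neil1, a glycosylase of oxidised bases, differed by 0.80, 0.79 and 1.00. Polh, the translesion polymerase eta, differed by 0.73, 0.78 and 0.90, and Xrcc1, a scaffold of single-strand break repair, by 0.46, 0.50 and 0.55. Apex1, the endonuclease that cuts abasic sites, was lower by -0.59, -0.38 and -0.85, and its call in G2/M was lost in matched cells (-0.39). Ung, a uracil glycosylase, was also lower in G1 (-0.72) and stood at -0.16 without a call in S. Of 19 genes of hypermutation and repair tested in all phases 5 were higher and 1 lower, and the list's median was 0.07. Over all genes tested in all phases 3.04% were higher and 3.3% lower. By phase, 5 were higher and 3 lower of 20 tested in G1, 5 and 1 of 22 in S, and 6 and 3 of 22 in G2/M. The shares over all genes were 9.08% higher and 10.2% lower in G1, 8.14% and 7.57% in S, and 7.33% and 7.16% in G2/M.

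Position and identity genes divided. Cxcr5, the receptor for the follicular chemokine CXCL13, was lower in DZ in each phase, by -0.54, -0.63 and -0.73. Gna13, the G protein that confines B cells to the germinal centre, was higher by 0.20, 0.42 and 0.37, with the G2/M call lost without the mouse block (0.37), with DESeq2 (0.37), with thinned cells (0.42) and in matched cells (0.38). S1pr2, the receptor that signals through it, was called in G1 alone (0.19) and stood at 0.10 and -0.14. Of 15 positioning genes tested in all phases 2 were higher and 1 lower in each, beside 3.04% and 3.3% of all genes. Such small counts are no result about the list.

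Bcl6, the factor that defines the germinal centre state, held 67.6 ± 8.87 CPM in DZ and 67.5 ± 5.05 in LZ cells in G1 (SD, n = 6 mice) and was called in no phase (-0.01, -0.21 and 0.01). Nuggc, a nuclear GTPase of germinal centre B cells, was higher in each phase (0.46, 0.46 and 0.92), and so was Pou2af1, the coactivator OCA-B (0.70, 0.69 and 0.66). Mef2c, a factor of B cell proliferation after receptor signals, was lower (-0.41, -0.40 and -0.25). In the list of germinal centre identity 7 of 17 genes were higher and 2 lower in all phases, and in that of B cell identity 1 of 16 was higher and 7 lower (median -0.09).

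The genes lower in DZ were led by light zone transcripts. Cd83 held 123, 171, 166, 196, 150 and 157 CPM in DZ cells in G1 and 674, 679, 661, 721, 641 and 609 CPM in LZ cells, and the states did not approach each other. In G2/M it held 78.0 ± 8.74 and 343 ± 43.2 CPM. Its log2 differences were -2.03 ± 0.06, -1.72 ± 0.08 and -2.19 ± 0.09. Serpinb1a, an inhibitor of serine proteases, fell most, by a mean of -2.15 over the phases, from 47.3 ± 24.8 CPM in LZ to 9.08 ± 3.87 in DZ in G1. Il4i1, a secreted amino acid oxidase, stood at a mean of -2.08, Snn at -1.73, Nfkbia, the inhibitor that NF-kB itself induces, at -1.65, Fcer2a, the low-affinity IgE receptor CD23, at -1.52, and Cd40, the receptor for T cell help, at -1.41. In the list of light zone genes 17 of 19 were lower in all phases and none higher (median -1.21).

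The NF-kB and CD40 response fell with them: 11 of 17 genes were lower in all phases and none was higher in all (median -0.90). Nfkb2 and Relb, the 2 subunits of the non-canonical pathway, differed by -1.19, -1.24 and -1.32 and by -1.11, -1.04 and -1.48. Birc3, an inhibitor of apoptosis that the pathway induces, differed by -0.79, -0.80 and -1.11. Bcl2a1b, a survival protein of another family, differed by -1.28, -1.15 and -0.74, the last not called in thinned cells (-0.62). Immediate early genes were lower as well, 4 of 9 in all phases, among them Egr1 (mean -1.43), Ier2 (mean -1.48, not called in matched G2/M cells at -0.71) and Junb (-0.82, -0.87 and -1.31).

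Class II antigen presentation was lower in DZ in each phase, at high absolute levels in both states. H2-Aa, the alpha chain of I-A, held 4308 ± 352 CPM in DZ and 6981 ± 147 in LZ cells in G1 and differed by -0.69, -0.61 and -0.54. Cd74, the invariant chain, differed by -0.55, -0.55 and -0.45, H2-DMa, the peptide exchanger, by -0.36, -0.38 and -0.54, and Ciita, the class II transactivator, by -0.57, -0.66 and -0.49. All 10 class II genes tested were lower in G1, 9 in S and 8 in G2/M, and 8 were lower in all (median -0.55). Cd22 and Ptpn6, an inhibitory coreceptor and its phosphatase, were lower too, by -0.43, -0.66 and -0.49 and by -0.47, -0.60 and -0.45. Of 17 genes of B cell receptor signalling, Syk, its proximal kinase, was higher in all phases (0.36, 0.30 and 0.31), and 1 gene was lower in all. Over all genes 3.04% were higher and 3.3% lower in all phases, so these counts are no result about the list. The G2/M call of Syk was lost without day 10 mouse 1 (0.25), day 10 mouse 2 (0.33) or day 22 mouse 1 (0.28), and without the mouse block (0.32).

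Myc and its targets were lower in DZ, most of all in G2/M. Myc held 17.9 ± 4.15 CPM in DZ and 37.3 ± 8.78 in LZ cells in G1, and 13.5 ± 3.23 against 54.8 ± 26.1 in G2/M. Its log2 differences were -1.15 ± 0.15, -0.89 ± 0.18 and -2.13 ± 0.19. Of 23 genes of the Myc response and ribosome assembly 7 were lower in all phases and none higher (median -0.28), with 16, 7 and 16 lower in G1, S and G2/M. Srm, spermidine synthase, differed by -0.71 and -1.49 in G1 and G2/M and by -0.32 without a call in S, and Batf, an AP-1 factor induced by T cell help, by -0.93, -1.35 and -1.71.

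Some metabolic, survival and secretory genes differed as well. In oxidative phosphorylation 9, 11 and 5 of 18 genes were higher in DZ in G1, S and G2/M and none lower, with 3 higher in all (median 0.15), such as Sdhb, a subunit of succinate dehydrogenase (0.35, 0.33 and 0.38). In glycolysis 1 of 12 was lower in all phases and none higher, beside 3.3% and 3.04% of all genes, so this count is no result about the list. Bcl2l11, which encodes the death activator BIM, was higher in G1 (0.87) and S (1.26) and stood at 0.26 without a call in G2/M, while Bid, another death activator, was lower in all (-0.66, -0.45 and -0.45). Of 6 genes of the plasma cell list tested in all phases, 3 were higher: Jchain, the joining chain of secreted antibody (0.74, 0.71 and 0.64), Mzb1, a chaperone of the secretory pathway (0.52, 0.50 and 0.52), and Slamf7, a surface receptor (0.35, 0.38 and 0.62). Others of the list were lower. By phase, 3 were higher and 1 lower of 6 tested in G1, 3 and 2 of 7 in S, and 3 and 1 of 7 in G2/M. Immunoglobulin transcripts were 1.79, 1.48 and 1.51% of UMIs in DZ and 1.46, 1.26 and 1.33% in LZ in G1, S and G2/M. The part of free RNA from plasma cells in these differences was not tested.

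The size of the zone difference itself changed with phase for 253 of 8048 genes (3.14%). Ribosomal protein genes took a large share of them: 57 of 93 tested were called, and 56 of the 57 had a DZ to LZ difference that was more positive in G2/M than in G1. Their summed share of UMIs was 26.3, 26.8 and 24.4% in DZ and 26.7, 25.3 and 23.3% in LZ in G1, S and G2/M, so DZ lay below LZ in G1 and above it in S and G2/M. Lrmp, an endoplasmic reticulum membrane protein of germinal centre B cells, went from -0.50 in G1 to -0.13 in S and 0.33 in G2/M. Hmgn2, a nucleosome-binding protein, went from 0.81 to 0.32 and 0.04. The count was 86 without the mouse block, 412 without immunoglobulin genes and 387 without cells near the score boundary, and it fell to 137 without day 10 mouse 2, 168 without day 22 mouse 1 and 163 without day 22 mouse 2.

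Against LZtoDZ cells of the same phase, DZ cells held far less of the Myc programme. The comparison could be made in S (5 mice) and in G2/M (3 mice), where 2639 of 6245 genes (42.3%) and 2094 of 6894 (30.4%) were called. LZtoDZ cells held a mean over mice of 21788 UMIs per cell at the median, against 9408 in DZ cells of all phases. The part of depth in these calls was not separated from state, and the calls in thinned cells are in the closing section. Over all genes, 20.4% were higher in DZ and 21.8% lower in S, and 13.9% and 16.5% in G2/M. All 25 genes of the Myc response tested in S and all 26 in G2/M were lower in DZ (medians -1.37 and -2.02, beside 0.02 and 0.05 over all genes). Myc itself differed by -2.54 and -3.8, Srm by -2.66 and -4.12 and Batf by -4.04 and -3.89. Ccnd2, the cyclin that drives entry into the cycle after stimulation, had 10 UMIs in DZ cells in S and 183 in LZtoDZ cells, 1.42 against 60.1 CPM. In G2/M it had 2 UMIs against 85, summed over mice. The LZtoDZ level was thus 290 times the DZ level (95% interval 77.8 to 2430, which covers counting error only).

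Dark zone genes lay on the other side. All 12 of those outside the cycle were higher in DZ than in LZtoDZ in S and 10 of 12 in G2/M (medians 1.14 and 1.38). Emp2 differed by 2.63 and 2.87, Bach2 by 2.38 and 2.70 and Rgcc by 0.99 and 1.42. Cxcr4 was called in S (1.31) and stood at 0.64 without a call in G2/M. Rgcc held 82.1 ± 32.2 CPM in LZtoDZ cells in S (SD, n = 5 mice), beside 179 ± 36.9 in DZ and 59.6 ± 11.9 in LZ (n = 6 mice). Germinal centre identity genes were higher in DZ in 15 of 17 and 12 of 17 and lower in none, and B cell identity genes in 14 of 16 and 10 of 16 and lower in none. Class II genes, which were lower in DZ than in LZ, were higher in DZ than in LZtoDZ in S (8 of 10, median 0.49), and 2 of 10 were so in G2/M. Light zone genes were lower in DZ here too, in 14 of 19 and 17 of 20. Cd83 fell by 1.02 and 1.79 on the log2 scale. Glycolysis genes were lower in 10 of 13 and 8 of 13. The G2 and M phase list had 5 higher and 12 lower of 47 in S, and 31 higher and none lower of 52 in G2/M. LZtoDZ cells called G2/M had a median G2/M score of 0.462 and S score of 0.014, beside 0.683 and -0.082 in DZ cells. These states were not matched on the scores, so phase and state are not fully told apart for such genes.

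Against preMem cells in G1, DZ cells held few transcripts of memory precursor and naive B cell genes. In all 6 mice together 1721 of 5823 genes were called (29.6%), on sums that reached down to 141893 UMIs for the smallest preMem group. Over all genes 14.1% were higher in DZ and 15.4% lower. Of 15 memory precursor genes tested 13 were lower in DZ and 1 higher (median -4.97 beside -0.02 over all genes), and all 7 naive B cell markers tested were lower. In counts summed over mice, Ccr6, a chemokine receptor of memory precursors, had 4 UMIs in DZ cells and 565 in preMem cells. The ratio was 337 (95% interval 131 to 1240, counting error only). S100a10, an annexin partner, had 6 UMIs against 508. Pml, a scaffold of nuclear bodies, and Plaur, the urokinase receptor, had no UMI in DZ cells and were at least 121-fold and 77.1-fold higher in preMem cells, taking 3 UMIs over the group as the floor. Klf2, a factor of B cell quiescence and trafficking, held 5.52 CPM in DZ and 237 in preMem sums and differed by -5.65. These UMI counts, ratios and CPM were summed over mice without pairing. Day 10 mouse 2 gave 1557805 of the 2659446 preMem UMIs and 946359 of the 6339313 DZ UMIs. The ratios thus mix days with states, while the tests used mouse as a block.

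In the other direction Rgcc differed by 3.44, and Lrrc49, a leucine-rich repeat protein, by 3.57. Rgcc held 16.2 ± 6.04 CPM in preMem cells in G1. Of 17 germinal centre identity genes 14 were higher and 1 lower (median 0.91). Emp2 did not enter the test, which took 3 of the 4 markers. Summed over mice it had 254 UMIs in DZ and 3 in preMem cells. The preMem level was 0.0282 times that of DZ (0.00577 to 0.0832, counting error only). That ratio mixes days with states, because Emp2 in DZ cells rose by day and most preMem UMIs came from day 10. Cxcr4 differed by 0.52 and was not called. Class II genes were lower in DZ in 10 of 10 (median -0.81), oxidative phosphorylation genes higher in 12 of 18 (median 0.42), and hypermutation and repair genes higher in 7 of 17 with none lower. Serpinb1a differed by -5.49 and Cd83 by -2.03. The preMem cells numbered 30 to 273 per mouse, the most in day 10 mouse 2.

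Inside the DZ state, a larger share of genes was called between phases than between zones, and 3 of the 4 markers were not among them. Between S and G1 2512 of 6898 genes (36.4%) were called, and between G2/M and G1 2910 of 7186 (40.5%). Of all genes, 19.8% were higher and 16.6% lower in S, and 20.8% and 19.6% in G2/M. The authors' phase rules are not given and may have used genes of these lists, so their changes are given as a description. All 42 S phase genes were higher in S than in G1 (median 2.16), and all 52 G2 and M phase genes higher in G2/M than in G1 (median 2.92). Of the 4 markers Cenpf alone was called between phases, and Emp2, Rgcc and Cxcr4 were not. The call of Cenpf between S and G1 was lost without day 10 mouse 2 (0.33) or day 22 mouse 1 (0.40) and without the mouse block (0.40). Class II genes were lower in S and in G2/M than in G1, in 9 of 10 each. Polh was higher by 0.50 in S and 1.82 in G2/M, from 33.7 ± 4.17 CPM in G1 to 123 ± 6.49 in G2/M. Lmo4 rose by 0.50 and 0.95 and Gcsam by 0.30 and 0.52. Lipc fell by 0.27 and 1.01.

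The authors' clusters cut the DZ cells mainly by phase. Cluster 0 held 783 DZ cells, 709 of them in G1, and cluster 2 held 384, 356 of them in S. Cluster 1 held 585 DZ cells, 404 in G2/M and 181 in S, with a median of 14458 UMIs. Cluster 3 held 467, of which 321 were in G2/M and 138 in G1, with a median of 8391 UMIs. Clusters 0, 1 and 2 mixed zones, with DZ cells making up 30.8, 49.9 and 38.7% of their non-PC cells. Clusters 3 and 7 were mostly DZ, at 86.0 and 82.4%, and all 112 DZ cells of cluster 7 were in G2/M.

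Over all phases of DZ cells 36 of 9487 genes were called across the 3 days (0.379%), with 2 mice a day. The count rested on the settings, with 464 calls without the filter on low counts, 207 without immunoglobulin genes and 69 with DESeq2. Emp2 rose, from 9.17 and 16.1 CPM at day 10 to 30.4 and 31.4 at day 16 and 62.4 and 54.4 at day 22, a log2 difference of 2.09 from day 10 to day 22. Rgs13 rose from 142 and 164 CPM to 275 and 235 and then 338 and 367 (1.16), and Rgs10, of the same family, from 77.6 and 76.1 to 155 and 126 and then 184 and 153 (1.09). The days did not overlap for Emp2, Rgs13 or Rgs10 except that the later 2 lay close for Rgs10, whose day 22 mouse 2 lay below day 16 mouse 1. Osbpl3, an oxysterol-binding protein, rose by 1.76 and Nt5e, the ectonucleotidase CD73, by 1.36. The calls of Emp2 and Rgs13 held under each alternative that was run, while those of Rgs10, Osbpl3 and Nt5e were lost without day 10 mouse 2 (1.08, 1.58 and 1.27).

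Other genes were lower after day 10, and of 8 interferon response genes tested 2 were called by day. Irf7, a transcription factor of that response, fell from 57.3 and 63.9 CPM to 25.7 and 27.0 and then 27.0 and 27.7. Lgals9, which encodes galectin-9, fell from 30.2 and 48.7 CPM to 4.71 and 7.79 and then 7.61 and 5.05, and Slfn2, an interferon-induced schlafen, from 51.2 and 56.4 to 24.6 and 27.5 and then 23.0 and 20.9. The fall lay between day 10 and day 16 for each, and the later days overlapped or nearly did. The calls of Lgals9 (-2.27) and Slfn2 (-1.26) were lost without day 10 mouse 2. Rgcc, Cxcr4 and Cenpf were not called by day, except Rgcc when immunoglobulin genes or the filter on low counts were left out (0.23 in each). The count of calls was 14 without day 10 mouse 2 and 62 without day 22 mouse 2. Mice of a day were pooled with those of the other days before capture, so the days share wells within the fraction.

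Markers of other cells were low in DZ cells and in part higher in LZ cells. Summed over 10 T cell markers, DZ cells held 43.2 to 85.5 CPM per mouse and LZ cells 100.7 to 157. The sum was led by Lck, which was lower in DZ in each phase (-1.13, -1.04 and -0.59). Lck had a UMI in 41.5% of DZ and 54.6% of LZ cells, Lat in 3.54 and 7.77%, and Cd3e in 0.04 and 0.0%. A sum led by Lck is thus no measure of T cell RNA. Cd4 and Il7r had no UMI in DZ cells. Myeloid markers summed to 6.71 to 34.6 CPM in DZ and 9.32 to 136 in LZ, with 8 of 10 in the matrix, Itgam at 0 and Lyz2 the leading gene, lower in DZ in S (-3.47). Stromal and endothelial markers, with 5 of 10 in the matrix, summed to 11.5 to 18.3 CPM in DZ and 17.1 to 22.0 in LZ, with Madcam1 at 0. NK cell markers summed to at most 8.07 and 41.4. Red cell markers, with 2 of 5 in the matrix, summed to 11.5 to 26.3 and 10.4 to 40.4. The absent genes include Col1a1 and Hba-a1, so these sums do not measure all such RNA. Plasma cell markers, led by Jchain, summed to 3091 to 3378 CPM in DZ and 2149 to 2330 in LZ. The part of such RNA in the genes lower in DZ was not tested.

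The states and phases were named by the authors from the expression tested here, by rules not given in the sources used here, and no doublet caller was run.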

How the data were processed

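The deposited table holds raw UMI counts of 14493 genes in 6619 cells, made by the authors with Cell Ranger and Seurat on mm10 (GRCm38), per the submitters' processing notes, with no versions given in the sources used here. The deposited cell table gives state, phase, cluster, mouse, UMI totals and the authors' scores. Matrix sums equalled the table's UMI totals in all 6619 cells. The authors' doublet treatment and naming rules are not given in the sources used here. Another 35 DZ cells lay in the plasma cell fraction and were not used, and 6 barcodes occurred in both fractions.

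Counts were summed per mouse, state and phase (at least 10 cells a sum, at least 3 mice) and tested with edgeR 4.0.16 in R 4.3.3 (glmQLFit and glmQLFTest, TMM, filterByExpr, mouse as block, Benjamini-Hochberg adjustment over all genes tested, threshold 0.05). The block rests on the tag that assigns both states to one mouse. Totals of the sums tested ran from 141893 to 2706647 UMIs by phase. Immunoglobulin genes (253) stayed in. Days were compared by one test over all 3 days without a block. Phase shares and UMI medians were compared by 2-sided exact permutation of signs within mice. Ratios of low counts were taken on UMIs summed over mice, without pairing. They carry exact 95% intervals for counting error only, with a floor of 3 UMIs.

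The members and gene lists were chosen with earlier results of these data known. Named genes were the 10 largest differences in each direction among genes called in all 3 phases, with at least 20 CPM and one direction in every mouse; the 6 largest in each direction of other comparisons; up to 4 of each list by lowest p; and the markers. For days and for the interaction, which have no single direction, they were the 12 of lowest p. Immunoglobulin, mitochondrial and predicted genes were not named. Alternatives were DESeq2 1.42.0, its size factors, no filter, at least 30 cells a sum, no immunoglobulin genes, cells thinned to 4758 UMIs (618 shallower cells left out), no block, cells matched on both phase scores within 0.05, and each mouse left out. Leaving out cells with a zone score from 0.45 to 0.55 was added after seeing the data, as were phase called anew with scanpy 1.11.5 in cells not thinned and deposited phase in the deeper cells. The fit was tested on simulated data. Promoters came from RefSeq (GRCm38.p6). Some genes of these lists are not reported here.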

Additional observations from a re-analysis of the deposited data

Results flagged for a closer look

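Over the mice's DZ cells in G1, S and G2/M, their shares and their median UMIs, 3 of 72 sets of values tested held a sample far from the others, where chance gives about 1 in 20, and all 3 were levels in G2/M. Gcsam was lowest in day 10 mouse 1, at 409 CPM. Il4i1 was highest in day 22 mouse 2, at 69.3 CPM. Rgcc was highest in day 22 mouse 1, at 266 CPM. The difference between DZ and LZ changed with phase for 2 of 22 named genes, Cenpf (edgeR interaction, adjusted p = 0.00297) and Lmo4 (adjusted p = 0.0166).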

How the results depend on the processing

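With DESeq2's test, calls numbered 732, 463 and 427 for DZ against LZ in G1, S and G2/M, 99 higher and 99 lower in all 3 phases, 1399 for DZ against LZ with phase ignored, 1587 and 1187 against LZtoDZ in S and G2/M, 1172 and 1453 for S and G2/M against G1 within DZ, and 69 by day. In thinned cells they numbered 540 and 513 in S and G2/M, 101 and 99 in all 3 phases, 1971 with phase ignored, 1133 and 811 against LZtoDZ, 1040 for DZ against preMem in G1, and 1466 and 1761 between phases. Matching on phase scores left 262 calls in G2/M and 72 higher and 96 lower in all 3; fewer cells entered these sums. The interaction gave 412 calls without immunoglobulin genes, 387 away from the score boundary, 86 with no replicate block (mouse pairing not used), and 137 to 279 with 1 mouse left out (137 lacking day 10 mouse 2; the pair of day 22 gave 168 lacking mouse 1 and 163 lacking mouse 2). Days gave 464 calls without the filter on low counts, 207 without immunoglobulin genes, and 14 to 62 with 1 mouse left out. Phase shares with 1 mouse left out differed by -18.01 to -16.12 (G1), -7.12 to -5.93 (S) and 22.45 to 23.94 points (G2/M), where 5 pairs cannot pass the threshold. Signs reversed in matched G2/M cells for Pcna (0.0747), Ldha (0.0311) and Vim (-0.0045), and away from the boundary for the G2/M minus G1 value of Rgcc (0.13). Of 9976 values of 796 named-gene results under the alternatives, 9513 kept sign and side of the threshold, 455 lost a call, 4 gained one and 4 reversed. At least 30 cells a sum left too few mice to run LZtoDZ, and leaving out 1 of its 3 mice in G2/M could not be run. The cause of these changes was not tested.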
